A study of Mus musculus with 6 samples.

Results

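The genes described here make, modify or carry heparan sulfate, a sulfated sugar chain of the cell surface and extracellular matrix. The set was *Ext1*, *Ext2*, *Ndst1*, *Ndst2*, *Hs2st1*, *Hs6st1*, *Gpc1*, *Gpc3*, *Gpc4* and *Sdc1*, and its probes were all those on the array annotated with 1 of these 10 symbols. They came to 19 probes of 9 genes, among 45281 probes and 19057 genes in all, and *Ndst1* was not analysed here. Whole mouse embryos were combined by stage into 6 pools of 8, and the RNA of every pool was hybridised to its own Illumina Mouse WG6 v2 array. The comparison asks which transcripts depend on *Zic2*, a zinc finger transcription factor needed for left-right asymmetry and forebrain development. In 3 pools every embryo was homozygous for *iso*, a chemically induced allele with a premature stop codon in *Zic2*, and in the other 3 every embryo was wildtype (+/+). All came from intercrosses of heterozygous parents on the C3H/HeH strain, were harvested at E8.0 to E8.5 and included both sexes, with no other allele or treatment. The *iso* mutation arose on a C57BL/6J chromosome, so that mutant embryos may also be homozygous for that strain's sequence near *Zic2*. The allele is carried by every cell of the embryo, and each value is a mean over 8 embryos and all their tissues. Fewer cells of a type and less RNA per cell cannot be told apart in such pools.

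Heparan sulfate is built on core proteins, chiefly the glypicans, which are held to the membrane by a lipid anchor, and the syndecans, which span it. The EXT1 and EXT2 proteins together polymerise the chain, NDST enzymes exchange acetyl for sulfate groups along it, and further sulfates are added by HS2ST1 at the 2-O and by HS6ST1 at the 6-O position of its sugars. The sulfated stretches bind secreted signals such as Nodal, Hedgehog and fibroblast growth factors, and heparan sulfate on the node and in the lateral plate is known for its part in passing left-sided signals.

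The values were log2 probe intensities, normalised so that all arrays shared 1 distribution. Of the 19 probes, 12 were above the background level of 7.47, set by probes for genes not thought to be active in the embryo, in at least 1 genotype. A probe below it in both genotypes is called not above background and is given no fold change. Because background light was not subtracted, differences of dim probes are understated. *Zic2* itself was 7.64, 7.57 and 8.01 in the mutant pools and 8.27, 8.06 and 8.00 in wildtype on its brighter probe. Those pools overlapped, and a stop codon need not lower a transcript, so the probe does not check the genotype. Of 7 defining markers of the embryo proper 6 were above background, the exception being *Pax6*. Their summed intensity, mostly of *Myl7*, *Tcf15* and *Meox1*, ran from 6046 to 6267 in wildtype and 4516 to 5422 in mutant pools. Those 3 genes (42.9%) were lower at an unadjusted limma p under 0.05, against 4.38% of all genes lower and 7.65% in either direction. *Sox2*, *Twist1* and *Nkx2-5* differed by 0.07, −0.06 and −0.12 with overlapping pools. All 9 measured markers of the yolk sac and visceral endoderm were above background as well. Their sum was 34311 to 48484 in wildtype and 39009 to 56598 in mutant pools. The sum of the blood markers, mostly of *Hbb-bh1* and *Hba-x*, was far more uneven among the mutant pools (9458, 2497 and 1012) than in wildtype (4047 to 5962). *Alas2*, of the same list, was not (SD 0.12 in mutant and 0.25 in wildtype pools). For trophoblast and decidua 4 of 5 measured markers were above background, *Tpbpa* not among them, with sums of 1534 to 2328 in wildtype and 1523 to 1829 in mutant pools.

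None of the 19 probes differed between *Zic2* iso/iso and wildtype embryos after adjustment over all probes (limma, adjusted p of at least 0.75). Across the whole array 0.0442% of probes passed. At an unadjusted p under 0.05 there were 3 of the 19 (15.8%), against 6.02% of all probes, with *Ext1* and *Gpc3* higher and *Hs6st1* lower in the mutant. The pools of the genotypes did not overlap for 3 probes (15.8%), those of *Ndst2*, *Hs6st1* and *Gpc3*, against 10.6% of all probes. The differences, mutant minus wildtype on the log2 scale, ran from −0.19 to 0.19 with a median of 0.01, and that of all probes was 0.00. With 3 pools against 3, an exact permutation test cannot give a two-sided p under 0.1. The limma p-values and SEs rest on the spread between pools, which the labels give as separate replicates. They do not rest on the pools of a probe alone, because limma draws each probe's spread towards a value shared by all probes. Where the shared value followed probe intensity, limma's unadjusted p was 0.066 for *Ext1*, 0.084 for *Hs6st1* and 0.031 for *Gpc3*.

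**Figure D1:**
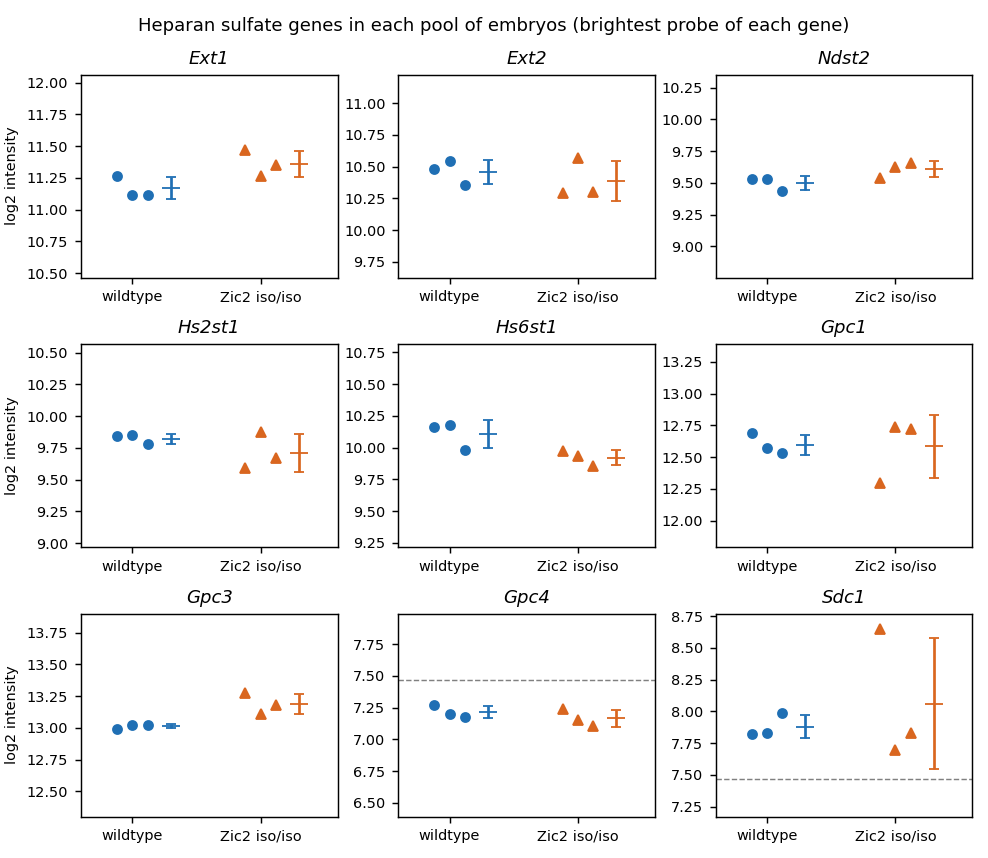
Quantile-normalised log2 intensity (vertical axis) of the brightest probe of each gene in the 3 wildtype (blue circles) and 3 *Zic2* iso/iso pools (orange triangles), in order of replicate number; horizontal and vertical bars beside them give the mean and SD, and the dashed line in the panels of *Gpc4* and *Sdc1* is the background level of 7.47. All panels have axes of the same span, and the mutant pools lie apart from wildtype, by small margins, only for *Ndst2*, *Hs6st1* and *Gpc3*.

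Neither polymerase gene passed the test. *Ext1*, whose product carries the main polymerising activity, had log2 intensities of 11.47, 11.26 and 11.35 in the mutant pools and 11.27, 11.12 and 11.12 in wildtype. Wildtype pool 1 reached into the mutant range and the other wildtype pools were below it. The difference was 0.19 (SE 0.08, 1.14-fold; 95% interval 0.03 to 0.36), with limma's unadjusted p of 0.024 and adjusted p of 0.78. *Ext2*, whose product is the partner EXT1 needs to leave the endoplasmic reticulum as an active complex, was at 10.29, 10.57 and 10.30 in mutant and 10.48, 10.54 and 10.36 in wildtype pools on its brightest probe. Here both the highest and the lowest pool were mutant. The difference of −0.07 (SE 0.09, limma adjusted p = 0.97) was within the spread of the pools. Of the 3 dimmer *Ext2* probes, 2 were not above background. The other reached the background level in mutant pools only, with means of 7.51 and 7.35 (limma adjusted p = 0.86).

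None of the sulfotransferases passed the test, and their differences were of both signs. *Hs6st1*, which encodes the enzyme for 6-O sulfation, had log2 intensities of 9.97, 9.94 and 9.86 in mutant and 10.17, 10.18 and 9.98 in wildtype pools. The mutant pools were the lower ones without exception, but wildtype pool 3 and mutant pool 1 nearly met. The difference was −0.19 (SE 0.07, wildtype 1.14-fold higher; 95% interval −0.35 to −0.03; limma p = 0.023 unadjusted and 0.78 adjusted, exact permutation p = 0.1). Without normalization between arrays the difference was −0.10, and it was −0.12 when averaged with the second *Hs6st1* probe, which was not above background.

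*Ndst2* encodes an enzyme that removes acetyl groups from the chain and puts sulfate in their place, the step on which later sulfation depends. Its log2 intensity was 9.54, 9.63 and 9.66 in mutant and 9.53, 9.53 and 9.43 in wildtype pools. The mutant values were the higher ones, barely so in pool 1. The difference was 0.11 (SE 0.07; 95% interval −0.04 to 0.25; limma p = 0.13 unadjusted and 0.91 adjusted, exact permutation p = 0.1). *Ndst2* shares chromosome 14 with *Zic2*, with 695 protein-coding genes between them. *Hs2st1*, for the 2-O sulfotransferase, was at 9.59, 9.88 and 9.67 in mutant and 9.84, 9.85 and 9.78 in wildtype pools on the brighter probe. Mutant pool 2 was the highest of all pools and the other mutant pools were the lowest. The differences on its 2 probes were −0.11 and −0.04 (SE 0.08 and 0.09; limma adjusted p = 0.93 and 0.98), and without normalization between arrays that of the brighter one was −0.03.

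For the glypicans a difference appeared on 1 probe of *Gpc3* and was not seen on another that was also well above background. *Gpc3*, a glypican that restrains Hedgehog signalling and embryonic growth, was at 13.27, 13.11 and 13.18 in mutant and 12.99, 13.02 and 13.02 in wildtype pools on its brightest probe. The wildtype pools lay close together and below every mutant pool. The difference was 0.18 (SE 0.07, 1.13-fold; 95% interval 0.03 to 0.32; limma p = 0.021 unadjusted and 0.75 adjusted, exact permutation p = 0.1). The next probe of *Gpc3*, annotated to the same transcript, was at 13.00, 13.00 and 13.18 in mutant and 12.89, 13.12 and 13.09 in wildtype pools. These pools overlapped, and the difference was 0.03 (SE 0.08, limma adjusted p = 0.99). The faintest *Gpc3* probe was not above background, and averaged over all its probes *Gpc3* was at 0.09. The pools also varied in markers of tissue and sex. *Apob*, a lipoprotein gene of the yolk sac, was at 11.32, 10.91 and 11.26 in mutant and 10.64, 10.66 and 10.69 in wildtype pools (limma adjusted p = 0.15). It was the exception on its list, as the pools overlapped for the other 8 measured yolk sac markers, whose differences ran from −0.10 for *Apoa4* to 0.30 for *Afp*. *Gpc3* lies on the X chromosome, and *Xist*, which is transcribed from the inactive X of female cells, was at 7.99, 8.43 and 9.12 in mutant and 8.79, 9.11 and 9.23 in wildtype pools (limma adjusted p = 0.78). The Y-linked *Eif2s3y* was at 8.88, 8.64 and 8.17 in mutant and 8.03, 8.43 and 8.69 in wildtype pools, a difference of 0.18. *Kdm5d* and *Uty*, also Y-linked but near background, differed by 0.02 and −0.04. The pools of the genotypes overlapped for each of these sex markers. The part of the tissues or of the sex ratio in the *Gpc3* values was not tested.

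*Gpc1*, the glypican of the developing nervous system among other tissues, was at 12.30, 12.74 and 12.72 in mutant and 12.69, 12.57 and 12.53 in wildtype pools. Mutant pool 1 was the lowest and the other mutant pools were the highest. The means differed by −0.01 (SE 0.10; 95% interval −0.24 to 0.22; limma adjusted p = 1.00), and without mutant pool 1 the difference was 0.13 (limma adjusted p = 0.88). *Gpc4*, which neighbours *Gpc3* on the X chromosome with 0 protein-coding genes between them, was not above background on either of its probes, with pool values of 6.89 to 7.27. A fall of *Gpc4* was thus not detectable on these arrays, and no mutant pool rose above background.

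*Sdc1*, which encodes syndecan-1, a core protein of epithelia, was set apart by 1 pool. Its brightest probe was at 8.65, 7.70 and 7.83 in mutant and 7.83, 7.83 and 7.99 in wildtype pools. Mutant pool 1 stood alone and the other mutant pools lay close to the wildtype ones. The difference was 0.18 (SE 0.18; 95% interval −0.21 to 0.57; limma adjusted p = 0.96), and it was −0.11 without mutant pool 1 (limma adjusted p = 0.91). A second *Sdc1* probe did not show the high value, at 7.55 in mutant pool 1 and 7.73 to 7.96 in the other pools (difference −0.06, SE 0.10), and the faintest was not above background. In mutant pool 1 the embryonic haemoglobin genes *Hbb-bh1* and *Hba-x* were also at their highest, at 12.87 and 10.58 against 11.55 to 12.17 and 9.41 to 9.95 in wildtype. In mutant pools 2 and 3 *Hbb-bh1* was at 10.75 and 9.04 and *Hba-x* at 8.65 and 7.49. Of the other 2 measured blood markers, both near background, *Hbb-y* was also highest in mutant pool 1 (7.96 against 7.08 to 7.54 in the other pools), and *Alas2* was not (7.47 against 7.42 to 7.92). The summed markers of the yolk sac and visceral endoderm were also highest in mutant pool 1, at 56598. Their sums were 39009 and 45614 in mutant pools 2 and 3 and 34311 to 48484 in wildtype. Of that list *Apoa4*, *Rbp4*, *Amn* and *Cubn* were not at their highest in mutant pool 1. The part of blood, yolk sac or another tissue in the *Sdc1* value was not tested.

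**Figure D2:**
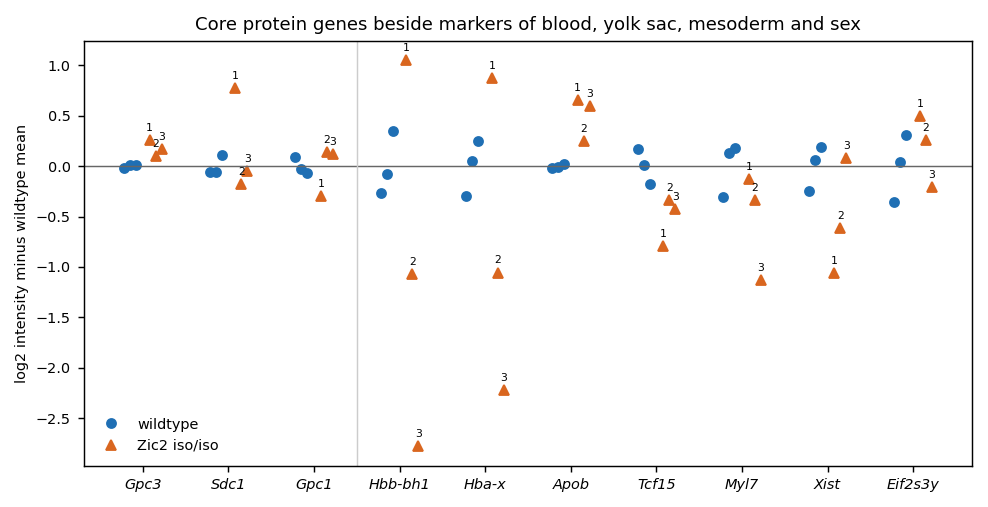
Log2 intensity minus the wildtype mean (vertical axis) of 3 core protein genes and, right of the line, of markers for blood (*Hbb-bh1*, *Hba-x*), yolk sac (*Apob*), mesoderm and heart (*Tcf15*, *Myl7*) and sex (*Xist*, *Eif2s3y*); points are single pools, blue circles for wildtype and orange triangles with the replicate number for *Zic2* iso/iso. The spread of *Hbb-bh1* and *Hba-x* over the mutant pools exceeds that of *Gpc3*, *Sdc1* and *Gpc1*. The high *Sdc1* pool is also the highest for *Hbb-bh1*, *Hba-x* and *Apob*, which were picked from longer marker lists.

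**Figure D3:**
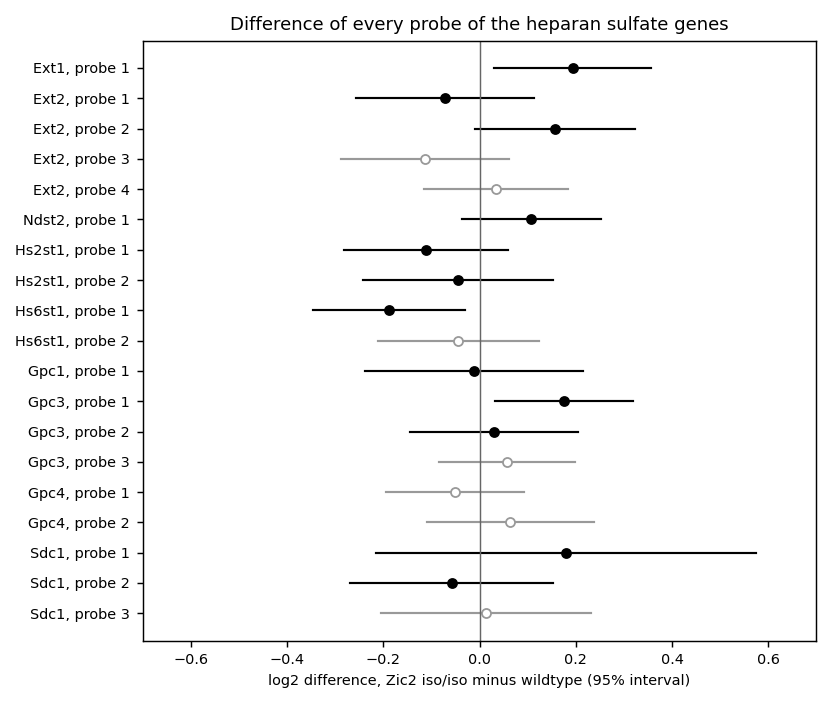
Difference of log2 intensity between *Zic2* iso/iso and wildtype pools (horizontal axis) for all 19 probes, numbered from the brightest of each gene, with points for limma's estimate and lines for its 95% interval; filled points are probes above background and open grey points are not. The intervals of the first probes of *Ext1*, *Hs6st1* and *Gpc3* leave out 0. Of these genes only *Gpc3* has a further probe above background, and its interval includes 0.

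The precision of the arrays bounded the changes that these genes could have had on this scale. For 7 of the 8 genes above background, all but *Sdc1*, the 95% intervals of the brightest probe reached no further than 1.28-fold in either direction. The interval of *Sdc1* reached 1.49-fold. For the same 7 genes the furthest bound was 1.36-fold with normexp background correction and 1.496-fold without normalization between arrays. These bounds hold for RNA averaged over the whole embryo, and a change in a small tissue such as the node would be diluted.

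Promoter sequence is shown for *Hs6st1* and *Gpc3*, the genes with an entry that had an unadjusted p under 0.05. The bases are the 250 before the start of transcription from RefSeq, GRCm38.p6, written 5′ to 3′ on the strand of the gene, with CpG dinucleotides in capitals. *Hs6st1* is on the plus strand (chr1:36068150-36068399) and *Gpc3* on the minus strand (chrX:52613975-52614224).
Hs6st1: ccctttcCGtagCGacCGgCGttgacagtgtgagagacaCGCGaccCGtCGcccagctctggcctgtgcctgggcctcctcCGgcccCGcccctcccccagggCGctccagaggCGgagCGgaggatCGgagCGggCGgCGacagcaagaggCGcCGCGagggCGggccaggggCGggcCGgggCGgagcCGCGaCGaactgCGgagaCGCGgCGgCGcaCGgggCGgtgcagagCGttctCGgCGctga
Gpc3: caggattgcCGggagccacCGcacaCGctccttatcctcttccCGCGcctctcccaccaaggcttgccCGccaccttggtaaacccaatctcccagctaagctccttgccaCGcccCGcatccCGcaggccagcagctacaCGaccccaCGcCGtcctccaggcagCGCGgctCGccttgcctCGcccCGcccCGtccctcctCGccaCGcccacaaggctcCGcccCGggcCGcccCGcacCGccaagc

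Both are rich in CpG, with 37 in *Hs6st1* and 25 in *Gpc3*, and 2.2% and 10.7% of all promoters of this length hold at least as many. *Ext2*, *Ndst2*, *Hs2st1*, *Gpc4* and *Sdc1* also had an entry, and the 7 promoters held 10 to 37 CpG where the median of 32851 promoters was 6. On both strands GGGCGG, the core of the motif bound by Sp1, was found in 6 of the 7 (all but *Ext2*) and in 32.7% of all promoters. TATAAA was found in 0 of the 7 and 12.4% of all, and TGGGTGGTC, the motif of Gli factors that Zic proteins also bind, in 0 of the 7 and 0.225% of all. A match or its lack is a description of these windows only.

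The rest of the heparan sulfate pathway was read from 51 other genes, from the sugar linker to lysosomal breakdown. Of the 50 with a probe 36 were above background, and 0 passed the test (limma, adjusted p of at least 0.61). At an unadjusted p under 0.05 there were 10 (20%), of which 7 were lower and 3 higher in the mutant, against 7.65% of all genes, with 4.38% lower and 3.26% higher. The pools of the genotypes did not overlap for 7 of the 50 (14%), against 10.9% of all genes. The median difference was −0.03, and for all genes it was 0.00.

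**Figure D4:**
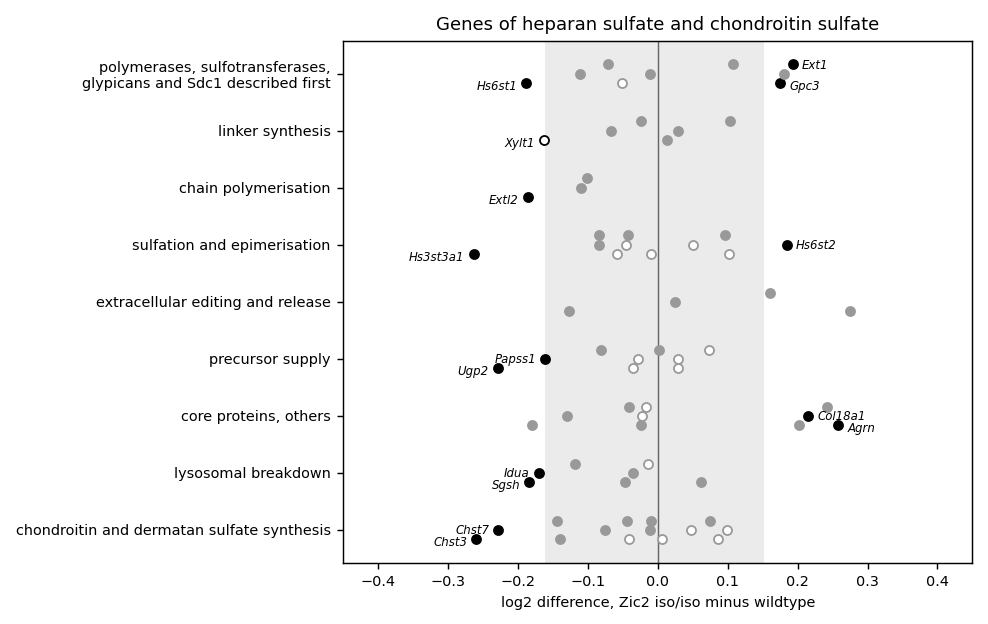
Log2 difference between *Zic2* iso/iso and wildtype pools (horizontal axis) of the brightest probe of each gene, by step of the pathway, with the genes described above in the top row; open points are not above background, black points have an unadjusted limma p under 0.05 and are named, and the grey band runs from the 5th to the 95th percentile of all genes on the array. Most genes lie in the band, which by its definition holds most genes of the array. Outside it are all the named genes, within 0.27 of 0 on either side. The unnamed *Sdc1*, *Sulf2*, *Notum*, *Hspg2*, *Tgfbr3* and *Sdc3* are also outside it.

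Of the genes for the linker, chain polymerisation and precursors, *Extl2*, *Ugp2*, *Papss1* and *Xylt1* had an unadjusted p under 0.05, each with a negative difference. *Extl2*, a relative of the EXT genes that can stop chain growth, was at 10.59, 10.67 and 10.76 in mutant and 10.86, 10.77 and 10.95 in wildtype pools, without overlap (difference −0.19, SE 0.07, limma adjusted p = 0.78). The other relatives, *Extl3*, which adds the first sugar of the chain, and *Extl1*, were at differences of −0.10 and −0.11 with overlapping pools. *Ugp2*, which makes the UDP-glucose from which the chain's sugars derive, was at 8.78, 8.67 and 8.55 in mutant and 8.83, 8.93 and 8.93 in wildtype pools, again apart (difference −0.23, SE 0.07, limma adjusted p = 0.68). *Papss1*, which makes the sulfate donor, was apart in the same direction, with 11.61, 11.76 and 11.79 in mutant against 11.82, 11.88 and 11.94 in wildtype pools (difference −0.16, SE 0.07, limma adjusted p = 0.82). *Xylt1*, for the xylosyltransferase that starts the linker, was not above background. Among the other linker genes above background *Fam20b*, a xylose kinase, differed most, by 0.10 (SE 0.10).

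Among 11 further genes of sulfation and epimerisation, *Hs3st3a1*, which encodes a 3-O sulfotransferase, had the largest difference. It was at 8.58, 8.90 and 8.81 in mutant and 9.18, 9.00 and 8.90 in wildtype pools, where mutant pool 2 was just above wildtype pool 3, so that the pools overlapped (difference −0.26, SE 0.09, limma adjusted p = 0.74). *Hs6st2*, the paralog of *Hs6st1*, was at 9.50, 9.49 and 9.35 in mutant and 9.38, 9.10 and 9.30 in wildtype pools. Its difference of 0.18 (SE 0.08, limma adjusted p = 0.82) was opposite in sign to that of *Hs6st1*, and its pools overlapped. Of the enzymes that edit or release chains outside the cell, *Sulf2*, a 6-O endosulfatase, differed by 0.27 (SE 0.14, limma adjusted p = 0.88) with a wildtype spread of 9.55 to 10.24.

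Of 10 other core protein genes 0 passed the test, and the differences of 6 were negative. At an unadjusted p under 0.05 there were 2 (20%), *Agrn* and *Col18a1*, against 7.65% of all genes. Both differences were positive, as for 3.26% of all genes. *Agrn*, which encodes agrin, was at 13.33, 13.43 and 13.37 in mutant and 13.26, 13.09 and 13.00 in wildtype pools, without overlap. Its difference of 0.26 (SE 0.08) had the lowest p of the 50 genes, 0.0052 unadjusted and 0.61 adjusted in limma. *Col18a1*, for collagen XVIII, was also without overlap, at 13.45, 13.12 and 13.15 in mutant and 13.09, 13.00 and 12.98 in wildtype pools (difference 0.21, SE 0.09, limma adjusted p = 0.79), and its dimmer probes gave 0.10 and 0.09. The other basement membrane core protein, perlecan (*Hspg2*), differed by 0.24 and 0.22 on its 2 probes, with wildtype pools of 9.86 to 10.74 on the brighter one that enclosed all mutant pools (limma adjusted p = 0.92). The cell surface syndecans *Sdc2*, *Sdc3* and *Sdc4* were at −0.13, −0.18 and −0.02, each with overlapping pools. The glypican *Gpc6*, which lies on chromosome 14 with 26 protein-coding genes between it and *Zic2*, was at −0.04 (SE 0.13). It was near background, with pools of 7.42 to 7.98 in mutant and 7.51 to 7.78 in wildtype. *Gpc2* and *Gpc5* were not above background. In lysosomal breakdown *Idua*, an iduronidase, was at 7.55, 7.68 and 7.53 in mutant and 7.73, 7.75 and 7.79 in wildtype pools, apart but near background (difference −0.17, SE 0.07, limma adjusted p = 0.78). *Sgsh*, a sulfamidase, had the largest difference of that step, −0.18 (SE 0.08, limma adjusted p = 0.80), at the background level and with overlapping pools.

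The secreted signals that heparan sulfate binds were measured on the same arrays. Of 7 such genes 2 passed the test, and of all 19057 genes 16 passed as lower and 2 as higher. The 2 were *Nodal* and *Shh*, which the authors had already reported as lower. Their differences were −1.07 and −0.86 on the brighter of 2 probes (limma adjusted p = 0.0075 for each). The dimmer probes were near background, at means of 7.51 in mutant and 7.53 in wildtype for *Nodal* and 7.37 and 7.56 for *Shh*. Differences of such dim probes are understated. They were −0.02 for *Nodal*, with overlapping pools, and −0.19 for *Shh*, without overlap. *Bmp4* and *Fgf8* were at 0.19 and 0.18 with overlapping pools (limma adjusted p = 0.83 and 0.79). *Gdf1* and *Wnt3a* were at −0.01 and 0.09, and *Fgf4* was not above background.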

How the data were processed

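What the authors deposited are intensities on a linear scale, with 1 value a probe and pool and neither background subtraction nor normalisation between arrays. The lowest intensity of a pool was 104 to 122 and the median 154 to 187. They thus precede the variance stabilisation that the methods describe. After log2 conversion, with a floor of 1, arrays were quantile normalised. All 45281 probes were fitted with limma 3.58.1 (lmFit and eBayes) in R 4.3.3, as *Zic2* iso/iso minus wildtype without covariates, with Benjamini-Hochberg adjustment over all probes and a threshold of 0.05. The precision is set by the 3 arrays a genotype and by the spread that limma shares over all probes.

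Symbols came from the platform annotation. Of the probes, 34885 have 1 symbol, 18 several and 10378 none. The brightest probe over all pools stands for a gene, and every probe of the main genes is given. The background level is the 95th percentile of 1606 probes for defensins, keratin-associated proteins and olfactory or vomeronasal receptors, and 43% of probes were above it. Named from the wider lists were genes past the adjusted threshold, those with an unadjusted p under 0.05 whose pools do not overlap, and the above-background gene of each list with the largest difference. Others were named after their values were seen. The genes and lists were chosen with earlier results of these data known. Promoters are those of a RefSeq table, and motifs were searched on both strands in Python 3.11.15. The steps were tested on simulated data. Alternatives covered normalisation, background correction, a filter on dim probes, the variance prior, array weights, the replicate block, each pool left out in turn, probes averaged by gene and a threshold of 0.1.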

Additional observations from a re-analysis of the deposited data

How the results depend on the processing

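No probe of *Ext1*, *Ext2*, *Ndst2*, *Hs2st1*, *Hs6st1*, *Gpc1*, *Gpc3*, *Gpc4* or *Sdc1* passed limma's test under any of the 16 alternatives. The same held for the 50 wider pathway genes. The lowest limma adjusted p of the first set was 0.48 (*Ext1*, without wildtype replicate 1). In that setting the lowest of the wider genes was 0.13. *Ext1*, *Ndst2*, *Hs2st1*, *Hs6st1* and *Gpc3* kept their sign in all 15 settings that gave a value, but not their size. *Ext1* ran from 0.14 to 0.27, *Ndst2* from 0.08 to 0.19, *Hs2st1* from −0.19 (without *Zic2* iso/iso replicate 2) to −0.03, *Hs6st1* from −0.25 to −0.10 and *Gpc3* from 0.09 to 0.25. The number of probes of the first set with an unadjusted p under 0.05, 3 in the report, was 0 without normalization between arrays, 1 with median centring, 1 with normexp background correction, 1 with an intensity trend, and 1 to 4 when a pool was left out (1 without wildtype replicate 1 or 2). For the wider genes, 10 in the report, it was 1 without normalization, 6 with median centring, 6 with normexp, 5 with the filter on dim probes, 5 with probes averaged by gene, and 6 to 10 when a pool was left out (6 without *Zic2* iso/iso replicate 1 or wildtype replicate 2). Values near 0 changed sign. *Ext2* was at 0.012 without normalization and 0.0011 with probes averaged. *Gpc1* was at 0.0666 without normalization, 0.0178 with median centring, 0.0024 with array weights, and between −0.0865 and 0.133 with a pool left out. *Sdc1* was between −0.11 and 0.36 with a pool left out. The replicate numbers did not pair the pools (correlations of −0.12, −0.02 and −0.12 between pools of like number), and with the replicate block the counts were 3 and 13, with 0 probes past the adjusted threshold. Without normalization the median of all probes was 0.05. Fold bounds of the 7 genes ran from 1.27 to 1.496. The causes of these shifts were not tested.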

Other observations

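Chondroitin and dermatan sulfate share the linker, sulfate donor and sugar precursors of heparan sulfate, and their own enzymes were read as a separate list. Of 15 genes 14 had a probe, 9 were above background, and 0 passed the test, with 2 (14.3%) at an unadjusted p under 0.05 in limma, both with a negative difference, against 7.65% of all genes (4.38% negative), and a median difference of −0.03. *Chst7*, a 6-O sulfotransferase of chondroitin, was at 9.19, 8.96 and 9.08 in mutant and 9.28, 9.29 and 9.34 in wildtype pools (difference −0.23, SE 0.07, limma p = 0.0079 unadjusted and 0.66 adjusted, exact permutation p = 0.1). *Chst3*, which encodes a related enzyme, was at 8.04, 8.01 and 7.98 in mutant and 8.17, 8.15 and 8.48 in wildtype pools (difference −0.26, SE 0.09, limma p = 0.011 unadjusted and 0.70 adjusted, exact permutation p = 0.1). For both genes the mutant pools were below all wildtype pools. The pools did not overlap for 14.3% of this list and 10.9% of all genes.

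Among the tissue markers, *Tcf15* of the somites was at 9.43, 9.89 and 9.80 in mutant and 10.40, 10.24 and 10.05 in wildtype pools, without overlap (limma adjusted p = 0.27). *Meox1*, of the same tissue, and *Myl7*, of the heart, differed by −0.28 and −0.53 with overlapping pools (limma adjusted p = 0.74 and 0.76). *Nkx2-5*, also of the heart, *Twist1* and *Sox2* differed by −0.12, −0.06 and 0.07 with overlapping pools, and *Pax6* was not above background.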
